A study of Homo sapiens with 4 samples.

Results

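The genes described are 10 integrin subunits that lie outside the hemidesmosome, of 63856 genes in the count table: ITGA1, ITGA2, ITGA3, ITGA5, ITGAV, ITGB1, ITGB3, ITGB5, ITGB6 and ITGB8. They were taken by name and not by their values, and were found by symbol in the normalized table and by Ensembl identifier in the counts. RNA was sequenced from MCF10A, an established non-tumorigenic human breast epithelial cell line, in 2 libraries of unmodified cells (WT) and 2 libraries of cells overexpressing HSF1 (HSF1-pLVX in the plots). HSF1 is the transcription factor that drives heat shock protein genes under stress. Both groups were grown in DMEM/F12 with horse serum, insulin, hydrocortisone, EGF and cholera toxin. The HSF1 cells had been transduced with a lentivirus carrying the human HSF1 coding sequence in the pLVX vector and selected with puromycin. The controls in these libraries were WT cells and not cells with the empty vector, so that the effects of HSF1, of transduction and of selection cannot be told apart here. The study calls the libraries of a group biological replicates and does not describe how their cultures were separated, so the p-values measure the spread between these samples.

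Integrins are heterodimers of 1 alpha and 1 beta subunit that span the plasma membrane, bind extracellular matrix outside the cell and link to the actin cytoskeleton through adaptor proteins inside it. The beta 1 subunit pairs with many alpha subunits, among them alpha 1 and alpha 2 (collagen receptors), alpha 3 (a receptor for laminin-332) and alpha 5 (the classical fibronectin receptor), while alpha v pairs with beta 1, beta 3, beta 5, beta 6 or beta 8 and binds ligands with an RGD motif. The beta 6 and beta 8 heterodimers of alpha v are known for releasing TGF-beta from its latent complex, and the beta 6 subunit is largely restricted to epithelia. A heterodimer reaches the cell surface only when both of its subunits are made, and a transcript level gives neither the amount of protein nor of the pair.

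RefSeq promoter windows (GRCh38.p14) were found for 8 of the 10 members, all but ITGA3 and ITGB3, and 4 are shown. ITGA1 and ITGA2 are neighbours on chromosome 5, 30115 bases apart on the same strand, and their transcripts moved in opposite directions. ITGB5 and ITGB6 encode partners of alpha v and were both lower in the HSF1 cells. Each sequence is the gene's strand, 5′ to 3′, of the window of 250 bases before the RefSeq start, ended before the first base counted as exon, with CpG dinucleotides in capitals: ITGA1 at chr5:52787666-52787895 (plus strand, 15 CpG), ITGA2 at chr5:52989102-52989325 (plus strand, 24 CpG), ITGB5 at chr3:124901419-124901668 (minus strand, 9 CpG) and ITGB6 at chr2:160200314-160200522 (minus strand, 0 CpG).
ITGA1: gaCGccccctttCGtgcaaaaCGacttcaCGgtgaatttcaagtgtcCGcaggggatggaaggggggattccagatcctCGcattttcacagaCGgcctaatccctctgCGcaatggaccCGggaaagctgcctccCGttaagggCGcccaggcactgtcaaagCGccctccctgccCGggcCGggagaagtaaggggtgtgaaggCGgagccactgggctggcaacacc
ITGA2: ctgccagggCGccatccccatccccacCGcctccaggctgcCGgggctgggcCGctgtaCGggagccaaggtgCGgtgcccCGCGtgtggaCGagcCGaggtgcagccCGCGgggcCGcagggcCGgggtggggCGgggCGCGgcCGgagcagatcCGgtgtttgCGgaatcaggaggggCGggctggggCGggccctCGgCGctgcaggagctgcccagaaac
ITGB5: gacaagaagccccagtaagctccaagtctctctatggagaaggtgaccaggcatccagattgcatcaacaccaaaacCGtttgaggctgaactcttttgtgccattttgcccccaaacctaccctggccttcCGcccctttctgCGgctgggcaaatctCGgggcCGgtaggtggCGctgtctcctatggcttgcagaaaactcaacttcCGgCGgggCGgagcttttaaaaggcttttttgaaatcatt
ITGB6: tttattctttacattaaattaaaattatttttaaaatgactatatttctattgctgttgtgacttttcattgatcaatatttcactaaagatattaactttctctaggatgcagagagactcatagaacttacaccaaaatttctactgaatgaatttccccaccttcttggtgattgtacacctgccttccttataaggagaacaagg
The members differed widely in base composition. In the whole windows of 250 bases, GC content was 78.4% for ITGB1 and 76.4% for ITGA2, against a median of 58.0% over all 35116 windows. The ITGB6 window held 30.0% GC and no CpG, where 1.75% of all windows had as little GC and 6.06% had no CpG. Motifs were searched on both strands. The heat shock element of 2 units was searched as GAANNTTC, found in 5.78% of all windows, and as TTCNNGAA, found in 6.62%, and these forms can overlap each other. None of the 8 member windows held either form, nor the AP-1 site TGANTCA (6.57% of all windows) or the TATA box TATAAA (10.7%). The GC box GGGCGG, present in 42.6% of all windows, was found 4 times in ITGA2, 3 times in ITGB1, 2 times each in ITGB5 and ITGB8, once in ITGA5, and not in ITGA1, ITGAV or ITGB6. For ITGB1 and ITGB6 the RefSeq start lay 47562 and 71616 bases inside the counted gene, so that these windows may not stand before the transcripts that were counted. Of the 250 bases, 194 in the ITGA5 window and 198 in the ITGB8 window were counted as exon of the gene itself. The ITGB8 GC box at -49 to -44 from the start lay in that exon part. In the ITGA2 window the last 26 bases were counted as exon and held the GC box at -9 to -4. The ITGA2 sequence shown ends before that box. A missing motif says only that its letters are not in the window.

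The 4 libraries held 18688109 to 24184285 counts. HSF1 itself (chromosome 8, 144291591 to 144314722, hg38) stood at 200 and 189 CPM (counts per 1e6 after TMM normalization) in the WT libraries and at 982 and 999 in the HSF1 libraries, a log2 fold change of 2.35 (SE 0.0999, adjusted p = 1.14e-10 by edgeR's quasi-likelihood test), so that the introduced gene was high in the libraries labelled for it. The epithelial markers KRT5, KRT14, KRT8, KRT18, EPCAM, TP63 and CDH1 were all present, with summed levels of 8481 and 8529 CPM in WT and 5779 and 6152 CPM in HSF1 libraries, and 5 of the 7 were lower and 2 higher. Of 7 fibroblast markers, 2 had enough counts to be tested. All 7 together summed to 7.78 to 10.8 CPM in WT and 13.9 to 14.9 CPM in HSF1 libraries. DCN, a tested marker, had 1 and 3 counts in WT and 94 and 87 counts in HSF1 libraries. COL1A1, the other tested marker, had 135 and 193 counts in WT and 269 and 183 in HSF1 libraries and was not called. Of the untested markers, PDGFRA went from 6 and 4 counts in WT to 1 and 1 in HSF1 libraries, and PDGFRB from 2 and 0 to 10 and 5. COL1A2, COL3A1 and LUM had at most 1 count in any library. The 7 endothelial and blood cell markers summed to 0.807 to 1.51 CPM in every library, with PTPRC at 0 counts in all 4. The part of these markers in the results below was not tested.

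Most of the 10 integrin subunits described were lower in the HSF1 cells. Of the 10 members, all of which passed the filter on low counts, 7 were lower (ITGA2, ITGA3, ITGAV, ITGB1, ITGB5, ITGB6 and ITGB8), 2 were higher (ITGA1 and ITGA5) and 1 was not called (ITGB3) at an adjusted p of 0.05. The contrast was broad: 33.2% of the 15830 genes tested were called lower and 32.7% higher, 65.9% in all. With a change of at least 2-fold added, 4 members were lower (ITGA2, ITGB5, ITGB6 and ITGB8), where 14.0% of all genes tested were, and 1 was higher (ITGA1), where 14.9% were. The median log2 fold change of the members was -0.62, beside 0.02 over all genes tested. In each of the 10 members the HSF1 libraries lay on one side of the WT libraries without overlap, as in 83.1% of all genes tested. In these bulk samples, fewer cells that express a subunit and less of its RNA per cell cannot be told apart.

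**Figure D1:**
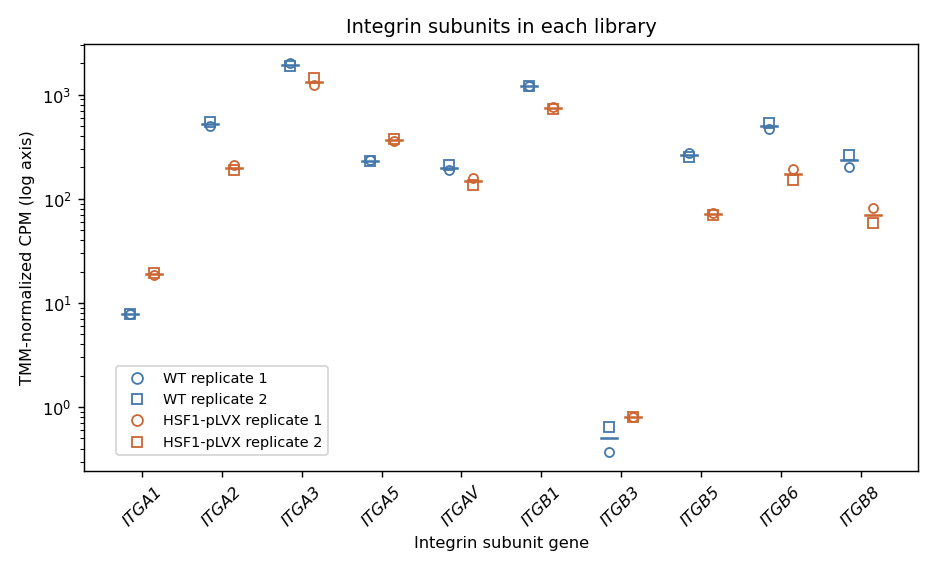
TMM-normalized CPM on a log axis of the 10 integrin subunits in each of the 4 libraries, with a point for each library and a bar at the mean of each group. The HSF1 libraries lie below the WT libraries for 7 subunits, and above them for ITGA1, ITGA5 and, at under 1 CPM in every library, ITGB3.

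The beta subunits that pair with alpha v, other than beta 1 and the scarce beta 3, showed the largest falls among the members. ITGB5 (ENSG00000082781.11, chromosome 3, 124761948 to 124901418, hg38), whose alpha v heterodimer is a vitronectin receptor, was measured at 273 and 251 CPM in WT and at 72.7 and 70.1 CPM in HSF1 libraries. The replicates of each group were close together and the groups far apart. ITGB5 was 3.67-fold lower, with a log2 fold change of -1.88 (SE 0.0918, 95% interval -2.07 to -1.68, adjusted p = 4.49e-10). ITGB8 (ENSG00000105855.9, chromosome 7, 20330702 to 20415754), the partner of alpha v that lacks the usual cytoplasmic links to actin, stood at 201 and 265 CPM in WT and at 81.1 and 58.0 CPM in HSF1 libraries. It varied most within the groups of the well-expressed members, with replicate gaps of 0.395 and 0.483 on the log2 scale, and still did not overlap between them. Its log2 fold change was -1.74 (SE 0.148, 95% interval -2.06 to -1.42, adjusted p = 1.28e-07), a 3.34-fold lower level, and between same-numbered libraries the log2 difference was -1.31 for number 1 and -2.18 for number 2. ITGB6 (ENSG00000115221.10, chromosome 2, 160099666 to 160271888), the epithelial partner of alpha v, was at 463 and 530 CPM in WT and at 192 and 151 CPM in HSF1 libraries. Both HSF1 libraries held less than the lower WT library, and the fall was 2.90-fold, with a log2 fold change of -1.54 (SE 0.119, 95% interval -1.79 to -1.28, adjusted p = 4.79e-08).

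ITGB3 (ENSG00000259207.7, chromosome 17, 47253846 to 47311816), the platelet and endothelial partner of alpha v, was barely detected. It had 7 and 12 counts in the WT libraries and 20 and 16 in the HSF1 libraries, or 0.373, 0.646, 0.797 and 0.805 CPM. The WT libraries differed by 0.792 on the log2 scale, more than the distance between the groups. The log2 fold change of 0.65 (SE 0.408, 95% interval -0.23 to 1.52, adjusted p = 0.176) was not called, and a change of the size seen in ITGB5 in the downward direction lies outside its interval. Of the 4394 bases counted for ITGB3, 51.6% were shared with ENSG00000259753, a gene model on the same strand that had 0 counts in all libraries, so that reads in those bases may have gone uncounted and the level of ITGB3 is uncertain.

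The subunits shared by many heterodimers fell less. ITGB1 (ENSG00000150093.18, chromosome 10, 32900319 to 33005792) was measured at 1206 and 1220 CPM in WT and at 756 and 729 CPM in HSF1 libraries. Replicates differed little, and the level was 1.63-fold lower in the HSF1 cells, with a log2 fold change of -0.71 (SE 0.0988, 95% interval -0.92 to -0.50, adjusted p = 1.98e-05). ITGAV (ENSG00000138448.11, chromosome 2, 186590065 to 186680901) was at 187 and 212 CPM in WT and at 159 and 134 CPM in HSF1 libraries. The groups did not overlap, but the higher HSF1 library lay close to the lower WT library. ITGAV had the smallest change among the called members, a log2 fold change of -0.44 (SE 0.103, 95% interval -0.66 to -0.22, adjusted p = 0.00156) and a 1.36-fold lower level. Its call was also the only one among the members that was lost without HSF1 replicate 2, where the log2 fold change was -0.32. That fit leaves 1 HSF1 library and called fewer of all genes tested.

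Among the alpha subunits that pair with beta 1, the laminin and collagen receptors ITGA3 and ITGA2 fell and the fibronectin and collagen receptors ITGA5 and ITGA1 rose. ITGA2 (ENSG00000164171.10, chromosome 5, 52989326 to 53094779), the collagen receptor subunit typical of epithelia, was at 499.9 and 547 CPM in WT and at 209 and 190 CPM in HSF1 libraries. Its level was 2.63-fold lower, with a log2 fold change of -1.39 (SE 0.0985, 95% interval -1.60 to -1.18, adjusted p = 1.83e-08). Its neighbour ITGA1 (ENSG00000213949.8, chromosome 5, 52787896 to 52959210), the other collagen receptor subunit of the 10 genes, was scarce in WT cells at 7.88 and 7.80 CPM and reached 18.4 and 19.6 CPM in HSF1 libraries. Both pairs of replicates were nearly equal, and the level was 2.42-fold higher, with a log2 fold change of 1.27 (SE 0.122, 95% interval 1.01 to 1.54, adjusted p = 4.56e-07). The ITGA1 exons shared 475 of 18566 counted bases with PELO on the same strand, which had 756 and 666 counts in WT and 654 and 517 counts in HSF1 libraries. PELO thus had fewer counts in both HSF1 libraries, while ITGA1 had more. RPL17P21, a gene model on the same strand with 0 counts in all libraries, shared 571 of the ITGA1 bases (3.08%). Reads in those bases may have gone uncounted. Apart from ITGA1 and ITGB3, the members shared at most 2.47% of their counted bases with another gene (ITGAV, on the opposite strand).

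ITGA3 (ENSG00000005884.17, chromosome 17, 50055968 to 50090481), which with beta 1 binds laminin-332, had the highest level per length of the alpha subunits, and was measured at 1991 and 1862 CPM in WT and 1236 and 1429 CPM in HSF1 libraries. Every HSF1 value was under every WT value. The fall was 1.45-fold, with a log2 fold change of -0.53 (SE 0.111, 95% interval -0.77 to -0.29, adjusted p = 7.37e-04). ITGA5 (ENSG00000161638.10, chromosome 12, 54395261 to 54419460), the alpha subunit of the fibronectin receptor, moved the other way, from 234 and 228 CPM in WT to 358 and 372 CPM in HSF1 libraries. The spread within each group was small beside that difference. ITGA5 was 1.58-fold higher, with a log2 fold change of 0.66 (SE 0.0897, 95% interval 0.47 to 0.85, adjusted p = 1.51e-05).

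**Figure D2:**
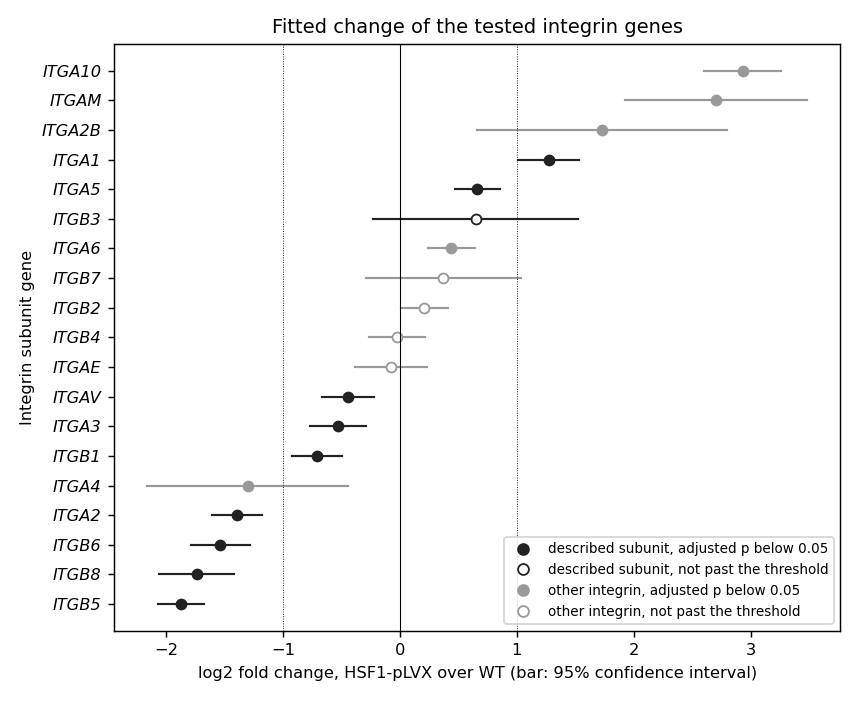
Log2 fold change, HSF1 over WT, with its 95% interval from edgeR for the 10 members and the 9 other integrin subunits that could be tested. Members run from ITGB5 at -1.88 to ITGA1 at 1.27, and the intervals of all members except ITGB3 exclude 0.

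Levels of different genes were compared per kilobase of counted gene length. In WT cells ITGB1 (202 CPM per kb) and ITGA3 (197 CPM per kb) stood highest and were not apart from each other over the libraries, followed by ITGB6 (78.1), ITGA2 (66.2), ITGB5 (40.7), ITGA5 (30.5), ITGAV (24.3), ITGB8 (15.4), ITGA1 (0.423) and ITGB3 (0.116). In HSF1 cells the order of these levels per kb was ITGA3 (136), ITGB1 (124), ITGA5 (48.2), ITGB6 (26.9), ITGA2 (25.2), ITGAV (17.8), ITGB5 (11.1), ITGB8 (4.59), ITGA1 (1.02) and ITGB3 (0.182), with ITGB6 and ITGA2 not apart. ITGA5 thus moved from rank 6 to rank 3, and ITGB5 from rank 5 to rank 7. The members summed to 654 ± 6.25 CPM per kb in WT and 394 ± 2.23 in HSF1 libraries (SD, n = 2), or 60.3% of the WT level. The 5 alpha subunits kept 71.8% of their WT sum (318 ± 3.49 to 228 ± 11.4 CPM per kb) and the 5 beta subunits 49.5% (336 ± 9.74 to 166 ± 9.20 CPM per kb). Without ITGB1, the beta subunits kept 31.8%, from 134 ± 8.11 to 42.8 ± 5.93 CPM per kb.

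A share within a library does not depend on the scaling between libraries, and shares of the summed level per length were taken among the 5 beta partners of ITGAV and among the 5 alpha partners of ITGB1. With 2 libraries against 2 an exact permutation test cannot go below a p of 0.333, so these shares were not tested. Among the beta partners of ITGAV, the share of ITGB1 was 60.9% and 59.2% in WT and 72.8% and 75.9% in HSF1 libraries, a rise of 14.3 percentage points in the mean. ITGB6 made up 22.1% and 24.3% in WT and 17.5% and 14.8% in HSF1 libraries, and ITGB5 12.9% and 11.4% against 6.52% and 6.80%. The share of ITGB8 was 4.04% and 5.10% in WT and 3.10% and 2.40% in HSF1 libraries. In each of these 4 subunits the groups were apart. ITGB3 held at most 0.115% in any library. With ITGB1 left out of the sum, the shares moved less. ITGB5 had 32.9% and 27.8% in WT against 24.0% and 28.2% in HSF1 libraries, and ITGB8 10.3% and 12.5% against 11.4% and 9.93%, both with overlapping groups, while ITGB6 had 56.7% and 59.6% against 64.2% and 61.4%, with the groups apart.

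Among the members that are alpha partners of ITGB1, the share of ITGA5 was 9.64% and 9.53% in WT and 21.5% and 20.8% in HSF1 libraries. The share of ITGA2 moved in the other direction, from 19.7% and 21.9% to 12.0% and 10.1%. ITGA3 held most of this sum over members in every library, with 63.4% and 60.2% in WT and 57.3% and 61.7% in HSF1 libraries. Its groups overlapped, as did those of ITGAV (7.11% and 8.18% against 8.79% and 6.92%). ITGA6, left out of the sum, stood at 63.0 and 62.7 CPM per kb in WT and 85.0 and 85.5 in HSF1 libraries. All these shares would be smaller with it counted. ITGA1 stayed a minor subunit, with 0.133% in both WT libraries and 0.450% and 0.446% in HSF1 libraries. Per length, ITGA5 had 0.489 and 0.434 times the level of ITGA2 in WT and 1.79 and 2.05 times its level in HSF1 libraries, so that the fibronectin receptor subunit passed the collagen receptor subunit. Against ITGAV, ITGA5 had 1.36 and 1.17 times the level in WT and 2.44 and 3.01 times in HSF1 libraries.

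**Figure D3:**
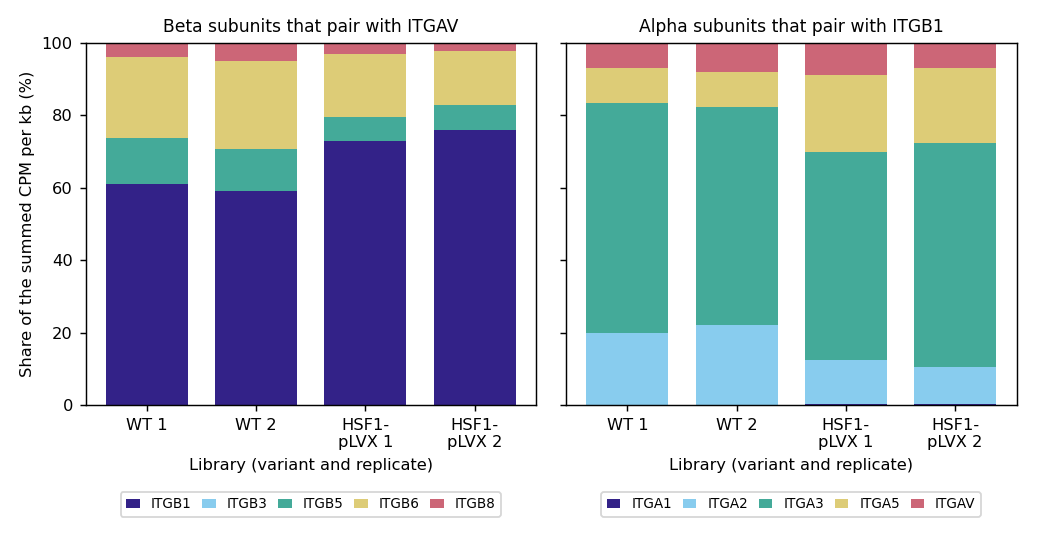
Share, in percent of the summed CPM per kb, of each beta partner of ITGAV and of each alpha partner of ITGB1 among the members, in each of the 4 libraries. ITGB1 takes 59.2% to 60.9% of the beta partners in WT and 72.8% to 75.9% in HSF1 libraries, and ITGA5 takes 9.53% to 9.64% of these alpha partners in WT and 20.8% to 21.5% in HSF1 libraries.

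The study calls a gene changed where the ratio of normalized values passes 2-fold in the same direction in both replicates, and does not say which libraries each ratio was formed between. With ratios taken here between same-numbered libraries of the deposited normalized values, 4 members were lower, where 6.42% of the 22321 rows were, and 1 was higher, where 5.00% were. The ratios for numbers 1 and 2 were 0.260 and 0.279 for ITGB5, 0.402 and 0.283 for ITGB6, 0.406 and 0.345 for ITGA2, and 0.393 and 0.220 for ITGB8. ITGA1 was the member that passed in the other direction, with 2.14 and 2.35. The other members stayed within 2-fold, ITGA5 at 1.48 and 1.62 and ITGB1 at 0.608 and 0.593 among them.

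ITGAV and ITGB1, the subunits shared by several heterodimers, were compared with 10851 genes by the root mean square difference of centred log2 CPM over the 4 libraries. Nearest to ITGAV were GOLM1 (0.0105), RRM2B (0.0176) and RIMOC1 (0.0192), and near to ITGB1 were PRRC1 (0.00613) and ATP2C1 (0.0115). The nearest of 10851 genes will nearly always lie closer than the nearest of the few other members. These distances therefore do not show whether either subunit moved with or apart from the members. Among the members, the nearest to ITGAV was ITGB1 at a difference of 0.157, and the nearest to ITGB1 was ITGA3 at 0.133.

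Of 16 other integrin subunit genes, 7 had too few counts to be tested (ITGA7, ITGA8, ITGA9, ITGA11, ITGAD, ITGAL and ITGAX), and of the 9 tested 4 were higher, 1 was lower and 4 were not called, with a median log2 fold change of 0.37. Over all genes tested, 32.7% were called higher and 33.2% lower. ITGA10, a collagen-binding partner of beta 1 known from cartilage, had 3.14 and 2.69 CPM in WT and 20.7 and 24.1 CPM in HSF1 libraries (log2 fold change 2.93, SE 0.154, adjusted p = 8.47e-10). Both HSF1 libraries stood well above both WT libraries. The leukocyte subunit ITGAM had 6 counts in each WT library and 55 and 41 counts in HSF1 libraries (log2 fold change 2.71, SE 0.364, adjusted p = 1.36e-05), and the platelet subunit ITGA2B had 3 and 8 counts against 31 and 14 (1.73, SE 0.499, adjusted p = 0.00710). ITGA4, a partner of beta 1 that binds VCAM1 and fibronectin, had 29 and 26 counts in WT and 21 and 6 in HSF1 libraries (log2 fold change -1.30, SE 0.401, adjusted p = 0.0106), a call that was lost without HSF1 replicate 2 and by DESeq2, which left 0 of the other integrins lower. ITGB2, ITGB7 and ITGAE, subunits of leukocytes, were not called (adjusted p 0.0599, 0.306 and 0.670). Of the hemidesmosome pair, ITGA6 had 412 and 409 CPM in WT and 555 and 559 CPM in HSF1 libraries (log2 fold change 0.44, SE 0.0920, adjusted p = 7.20e-04), and ITGB4 had 2244 and 2000 CPM against 2003 and 2171 CPM (-0.02, 95% interval -0.26 to 0.22, adjusted p = 0.861).

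The matrix ligands of the members fell more often than they rose. Of 33 ligand genes, 27 were tested, 15 were lower, 6 were higher and 6 were not called, with a median log2 fold change of -0.81, and with a 2-fold change added 12 were lower and 1 was higher. The shares over all genes tested were 33.2% lower and 32.7% higher, and at 2-fold 14.0% lower and 14.9% higher. The largest falls among well-counted ligands were in COL5A1, a fibrillar collagen chain (5.44 to 0.155 CPM, log2 fold change -5.07, SE 0.359), and THBS1, thrombospondin 1 (6398 to 681 CPM, -3.23, SE 0.155). The laminin chains LAMA5 (356 to 707 CPM, 0.99, SE 0.0945) and LAMB1 (242 to 448 CPM, 0.89, SE 0.0931) had the largest rises among well-counted ligands. Without HSF1 replicate 2, fewer ligands were called higher, and fewer of all genes tested were called in either direction. The other ligands in this paragraph were named after their values were seen. FN1, fibronectin, a ligand of alpha 5 beta 1 and of other integrins, stood at 11430 and 11491 CPM in WT and at 2559 and 1866 CPM in HSF1 libraries (log2 fold change -2.37, SE 0.152), the reverse of the rise in ITGA5. ITGB1 was lower, as FN1 was. So were ITGAV and ITGA4, alpha subunits of other fibronectin receptors, whose calls were both lost without HSF1 replicate 2. LAMA3 (-1.26, SE 0.112) and LAMB3 (-0.81, SE 0.110), chains of laminin-332 bound by alpha 3 beta 1, were lower, as was ITGA3, while LAMA5, LAMB1 and LAMC1 (0.33, SE 0.0967), chains of another laminin that it binds, were higher. Of the collagen chains tested, COL4A1 (-2.51, SE 0.0914), COL4A2 (-1.77, SE 0.0963), COL5A1 and COL6A3 (-0.79, SE 0.208) were lower. COL6A1 alone was higher (0.34, SE 0.0952), and COL1A1, COL5A2 and COL6A2 were not called. Of the collagen receptor subunits among the members, ITGA2 was lower and ITGA1 higher. Of the genes tied to the latent TGF-beta complex, LTBP1 was lower (-0.96, SE 0.124) and TGFB1, with 83.4 and 74.6 CPM in WT and 72.9 and 83.7 CPM in HSF1 libraries, was not called (-0.01, 95% interval -0.22 to 0.19, adjusted p = 0.897). These directions stand side by side and no relation between ligand and receptor was tested.

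Inside the cell, the genes of integrin signalling were mostly lower by small amounts. Over all genes tested, 33.2% were called lower and 32.7% higher, and at 2-fold 14.0% were lower and 14.9% higher. Of 16 genes that activate or inactivate integrins, 14 were tested, 9 were lower, 1 was higher and 4 were not called (median log2 fold change -0.37), and at 2-fold 2 were lower. The larger fall was in TLN2, the second talin (11.1 to 2.78 CPM, log2 fold change -1.98). KRIT1, a partner of the integrin inhibitor ITGB1BP1, was higher (20.9 to 37.2 CPM, 0.83). TLN1, the main talin of epithelial cells and named after its value was seen, had 455 and 390 CPM in WT and 438 and 421 CPM in HSF1 libraries (0.02, 95% interval -0.19 to 0.24). Without HSF1 replicate 2, fewer genes of this list were called lower, as was so over all genes tested. Of 35 adhesion complex genes, 33 were tested, and 21 were lower, 9 higher and 3 not called (median -0.39), of which 3 were lower and 2 higher by 2-fold. NEDD9, a docking protein of the focal adhesion kinase, was lower (191 to 37.4 CPM, log2 fold change -2.35), as was CSRP1, a LIM protein of the actin cytoskeleton (286 to 64.9 CPM, -2.14). The rises were led by TNS2, a tensin (17.0 to 61.6 CPM, 1.86), and PTK2B, the kinase related to focal adhesion kinase (86.4 to 226 CPM, 1.39).

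Of 15 lateral partners, membrane proteins that associate with integrins, 14 were tested and 6 were higher, 6 lower and 2 not called, with a median log2 fold change of -0.05. For this list and the next, the shares over all genes tested were 32.7% higher and 33.2% lower. The tetraspanin CD82 was higher (120 to 444 CPM, log2 fold change 1.88) and the tetraspanin CD9 lower (369 to 128 CPM, -1.53). SLC3A2, the heavy chain of amino acid transporters that binds beta 1, was higher (308 to 771 CPM, 1.32), and PLAUR, the urokinase receptor, lower (195 to 52.3 CPM, -1.90). Of 14 trafficking genes, which carry integrins into the cell and back to its surface, 13 were tested and 8 were lower, 1 higher and 4 not called (median -0.44). The endocytic adaptor DAB2 (73.6 to 19.9 CPM, -1.88) and the recycling protein RAB11FIP1 (228 to 77.4 CPM, -1.56) had the largest falls, and RAB4A, a GTPase of fast recycling, was the gene that rose (20.7 to 27.5 CPM, 0.40).

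**Figure D4:**
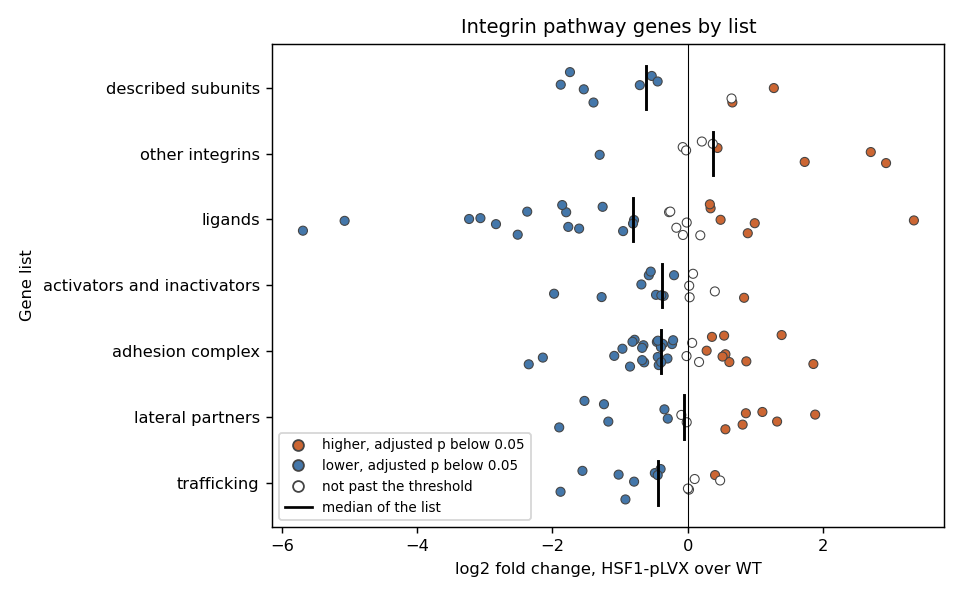
Log2 fold change, HSF1 over WT, of each tested gene of the members, the other integrins, the ligands, the activators and inactivators, the adhesion complex, the lateral partners and the trafficking genes, with a bar at the median of each list. The medians run from -0.81 for the ligands to 0.37 for the other integrins, with the members at -0.62.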

How the data were processed

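The authors sequenced total RNA (Ribo-Zero libraries, paired-end reads), aligned it to hg38 with HISAT2 2.0.5, processed it with SAMtools 1.13 and deposited raw counts per gene from featureCounts 1.6.5 for 63856 genes of GENCODE release 26. The strand, overlap and multi-mapping settings are not given in the sources used here. The authors also deposited log2-like values normalized with DESeq2 1.32.0 for 22321 genes, which served only for the study's ratio rule, applied here between same-numbered libraries. Samples were grouped by their labels. Symbols came from GENCODE release 44 for 57392 identifiers, and 15532 of the 15830 tested genes have one.

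The deposited counts were fitted in R 4.3.3 by edgeR (version 4.0.16; filterByExpr, TMM, quasi-likelihood test on group alone, Benjamini-Hochberg over all 15830 genes passing the filter). The test was also tried on simulated counts in which far fewer genes were changed than were called here. That trial therefore does not show how the test performs on these data. CPM are scaled by TMM, errors of means are SD (n = 2), and SE is the log2 fold change over the root of its F value. Same-numbered libraries were not treated as pairs: no source ties a number to a shared culture, and the correlation of their deviations from the group means was 0.000143 over tested genes. Replicates differed by more than sampling noise (chi-square per degree of freedom 6.62 in WT and 8.04 in HSF1). Alternatives were DESeq2 1.42.0, limma-voom (limma 3.58.1), other normalizations and filters, stricter thresholds, the replicate number as a block and leaving out each library.

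The members and gene lists were chosen with earlier results of these data known. Named genes are HSF1, the members, all tested integrins, and the 2 called genes of each other list that rose most and the 2 that fell most, given at least 50 counts in both libraries of the higher group, and the 3 genes nearest to ITGAV and to ITGB1 in pattern. Some genes that the rule names are not reported here. Genes outside this rule are said to be so where they are named. The number of libraries, 2 a group, limits the precision.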

Additional observations from a re-analysis of the deposited data

How the results depend on the processing

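Of the 9 called members, all but ITGAV stayed called in the same direction under each other model, normalization, filter and left-out library run. ITGAV lost its call without HSF1 replicate 2 (log2 fold change -0.32). With the replicate number as a block, 5138 genes were called higher and 5171 lower, and no member changed its call. Requiring a 2-fold change left 2358 genes higher and 2218 lower, and 1 and 4 members. It left 1 ligand higher and 12 lower, 0 activators or inactivators higher and 2 lower, and 2 adhesion complex genes higher and 3 lower. Of the lateral partners 3 were higher and 4 lower, and of the trafficking genes 0 were higher and 3 lower. The study's ratio rule gave 1 and 4 members. DESeq2's test and an adjusted p of 0.01 each left 0 other integrins lower, and upper quartile scaling gave 2 trafficking genes higher. Leaving out a library moved ligands higher between 3 and 6, activators or inactivators lower between 5 and 8, and other integrins lower between 0 and 1, the lowest values each without HSF1 replicate 2. Counts not divided by gene length moved the changes in share to 0.0531 points for ITGB3, -3.98 for ITGB8, 0.650 for ITGA1 and 9.72 for ITGA5. Undivided counts weigh longer genes more. The counted length was 15156 bases for ITGB8 and 18566 for ITGA1, against 7577 for ITGA5 and 4394 for ITGB3. The cause of the other shifts was not tested. Upper quartile scaling put the median log2 fold change of all genes at 0.104, against 0.02 with TMM. With 7 to 20 counts, ITGB3 is the member whose depth limits its comparison.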

Other observations

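The following ligands and partners of the members were named after their values were seen. CYR61 and CTGF, matricellular proteins bound by alpha v integrins, were at 427 and 500.1 CPM and at 73.0 and 101 CPM in WT libraries, and at 54.2 and 56.6 CPM and at 22.5 and 25.6 CPM in HSF1 libraries (log2 fold changes -3.06, SE 0.107, and -1.86, SE 0.132). TNC, tenascin C, an RGD ligand, fell from 244 and 273 CPM to 82.1 and 66.4 CPM (-1.80, SE 0.110). EDIL3, another RGD ligand, had 52 and 45 counts in WT and 2 and 0 counts in HSF1 libraries. VTN, vitronectin, the ligand that names the beta 5 receptor, was near the limit of detection, with 5 and 11 counts in WT and 6 and 11 counts in HSF1 libraries.

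CD151, the tetraspanin that associates with alpha 3 beta 1, was at 873 and 865 CPM in WT and at 358 and 378 CPM in HSF1 libraries (log2 fold change -1.24, SE 0.0964). CAV1, the coat protein of caveolae, moved the other way, from 476 and 421 CPM to 1004 and 925 CPM (1.10, SE 0.104).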
